A study of Mus musculus with 10 samples.

Results

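The NMDA and metabotropic glutamate receptor genes described here are 8 genes of the mouse neocortex, Grin1, Grin2a, Grin2b, Grin2d, Grin3a, Grm3, Grm5 and Grm7, followed through prenatal development to birth. They were chosen by their symbols, with earlier results of these data known, and matched to the Ensembl identifiers of a table of 22373 genes. All 8 were found and all 8 held enough ribosome-protected fragments to be tested, as did 13484 genes in all. The filter asked for 32 fragments, summed over the 2 libraries of a stage, in at least 1 stage. NMDA receptors are glutamate-gated cation channels that need both glutamate and a glycine-site agonist to open and that pass calcium, and they are built from an obligatory GluN1 subunit with GluN2 and sometimes GluN3 subunits. Metabotropic glutamate receptors (mGlu) are G protein-coupled receptors that respond to the same transmitter through second messengers. In the cortex both families are known for their part in neuronal maturation, synapse formation and plasticity, and the GluN2 subunits are known to be used in different proportions before and after birth.

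Ribo-seq counts ribosome-protected mRNA fragments (RPFs), so a value reflects both how much of an mRNA is present and how densely ribosomes occupy it. The neocortex came from wild-type CD-1 mice at embryonic days E12.5, E14, E15.5 and E17 and at P0, the day of birth, with no treatment, transgene or deletion at any stage. There were 2 libraries per stage, each made from a pool of brains of both sexes from timed pregnant females, with lysates digested by RNase T1 and RNase A. A replicate is therefore a pool and not an animal, and the stages differ in age and, per the study's methods, in how many brains were pooled. RPF levels are given in CPM, which are counts relative to the scaled library size. Levels are compared between stages within a gene and not between genes, since coding lengths were not used here.

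The 10 libraries held between 7544404 and 36129988 counts, with the lowest total in P0 replicate 1. The P0 libraries differed more from one another than those of other stages. Over 4559 well-counted genes, the log2 ratios of replicate 1 to replicate 2 had an SD of 0.532 at P0 and of 0.125 to 0.216 before birth. No pair of replicates agreed within sampling noise (chi-square per degree of freedom between 16.7 and 177). The 10 genes listed as markers of neocortical identity were detected at every stage. In bulk tissue, fewer cells of a type and less RNA per cell cannot be told apart.

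From E12.5 to P0, RPFs of all 8 receptor genes rose. Fitted log2 fold changes ran from 1.89 for Grin2a to 5.99 for Grin3a, with a median of 3.91, while the median over all genes tested was -0.01. All 8 were called higher by limma-voom (Benjamini-Hochberg adjusted p under 0.05, with a minimum fold), against 30.1% of all genes tested. Grin1, Grin2b and Grm5 passed the filter of 32 counts at E12.5. The other 5 passed it only through later stages, where they were higher, so their choice for testing was not independent of a rise. The members were also chosen with earlier results of these data known, so the number called is not an independent result. Without the filter 8 were also called. In all 8, both P0 libraries lay above both E12.5 libraries, which held for 36.4% of all genes tested. A moderated F test for a change at any stage also called 8 of 8, against 63.8% of genes.

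The steps between adjacent stages were tested one by one. From E12.5 to E14, 0 of the 8 were called by limma-voom, where 0.497% of all genes were called higher. Both edgeR and DESeq2 also called 0 of the 8, and 85 and 399 of all genes in either direction. Grin2b and Grm5 had an unadjusted limma-voom p under 0.05. The share of all genes under that unadjusted threshold is not given here, so these 2 are not set against a background. From E14 to E15.5, 5 were called higher (Grin1, Grin2b, Grin3a, Grm3 and Grm5), against 16.5% of all genes. From E15.5 to E17, 5 were called higher (Grin1, Grin3a, Grm3, Grm5 and Grm7), against 5.61%. From E17 to P0, 4 were called higher (Grin1, Grin3a, Grm3 and Grm7), against 9.46%. No member was called lower at any step. Both libraries of the later stage lay above both of the earlier in 3, 6, 8 and 5 of the 8 genes at these steps, against 27.0%, 38.1%, 34.0% and 26.9% of all genes tested. Some counts rested on single libraries. Without P0 replicate 1 or replicate 2, Grin2b was also called from E12.5 to E14. Leaving out a library of E15.5 or E17 removed most or all calls from E15.5 to E17. Leaving out an E17 library also removed calls from E17 to P0. Such a fit leaves a stage with 1 library, which can lower the calls of all genes. The share of all genes called in these fits is not given here, and whether the losses are particular to the 8 genes was not tested.

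The medians of the 8 fitted log2 fold changes at the 4 steps were 0.39, 1.73, 1.246 and 0.53. With Grin3a, which had 3 counts at E14, set at the lower end of its counting interval, the median from E14 to E15.5 was 1.66. Differences between steps were not tested, and adjacent steps share the libraries of the stage between them.

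**Figure D1:**
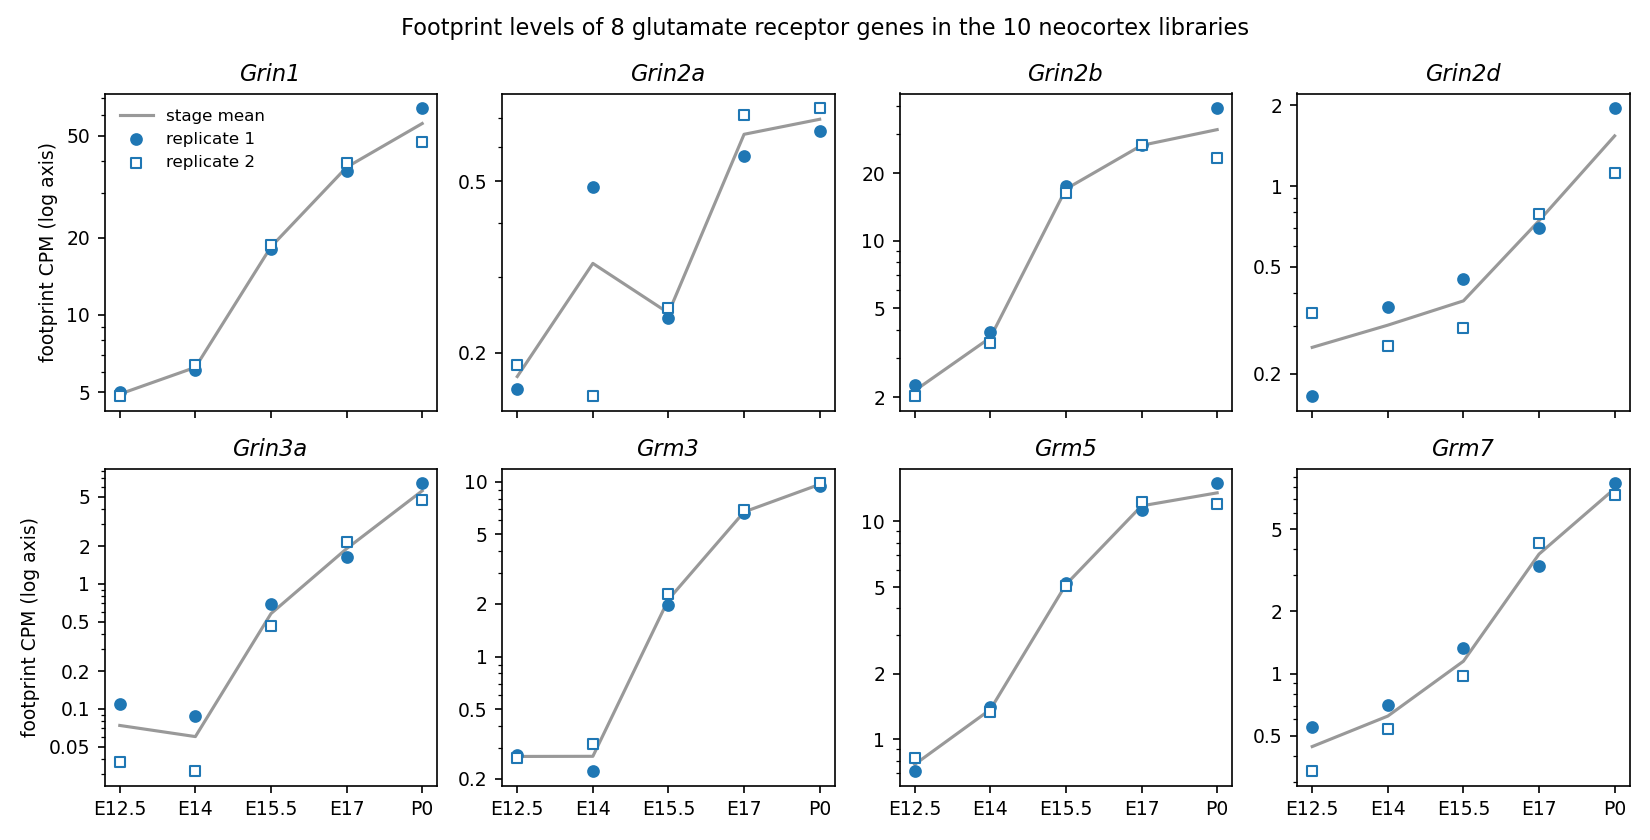
RPF level (CPM, log axis with its own range in each panel) of the 8 receptor genes against stage. Filled circles are replicate 1, open squares are replicate 2 and the grey line joins the stage means. Both P0 libraries lie above both E12.5 libraries in every panel, and the P0 replicates of Grin2b, at 39.2 and 23.5 CPM, lie on either side of the E17 replicates.

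Grin1 (ENSMUSG00000026959) encodes GluN1, the subunit that every NMDA receptor contains and that binds glycine or D-serine. Its RPF level was 5.01 and 4.82 CPM in the E12.5 libraries and 6.10 and 6.40 in those of E14. E15.5 libraries held 18.1 and 18.7 CPM, E17 libraries 36.3 and 39.0, and P0 libraries 64.2 and 47.4. Each stage lay above the one before it with no overlap between libraries. The mean went from 4.91 ± 0.13 CPM (SD, n = 2) at E12.5 to 55.8 ± 11.9 at P0, and the fitted change was 11.03-fold (log2 3.46 ± 0.17 SE, adjusted p = 1.26e-06). The change from E12.5 to E14, 0.35 ± 0.18 on the log2 scale, was not called (adjusted p = 0.406). The 3 later steps were called, at 1.56 ± 0.16 (adjusted p = 0.000276), 1.03 ± 0.14 (0.00898) and 0.53 ± 0.14 (0.0312). The last of these calls was lost in 11 of 18 alternative fits, among them those without any 1 of the E12.5, E14, E15.5 or E17 libraries, with adjusted p from 0.0527 to 0.183.

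The region before the Grin1 start is shown because Grin1 had the most counts of the 8 and its level rose at 3 steps in succession. RefSeq (GRCm38.p6, the C57BL/6J reference, whereas the mice were CD-1) places the 250 bases upstream of the start at chr2:25319188-25319437 on the minus strand. Of the 8 genes, 4 had an entry in the promoter table, namely Grin1, Grin2d, Grm3 and Grm7. Capitals mark matches on either strand to TGACG, the core of the cyclic AMP response element (CRE) bound by CREB-family factors.
Grin1: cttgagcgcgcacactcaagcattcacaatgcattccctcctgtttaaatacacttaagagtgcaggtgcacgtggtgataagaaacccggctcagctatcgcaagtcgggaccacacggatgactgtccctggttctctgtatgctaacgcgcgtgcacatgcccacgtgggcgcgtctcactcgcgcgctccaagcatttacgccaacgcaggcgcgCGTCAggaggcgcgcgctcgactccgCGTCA
The window held 2 matches, both read here as the reverse complement, and the second ends at the base next to the start. A match to TGACG was found in 17.8% of the 32851 RefSeq promoter windows of the same length, a GC box (GGGCGG) in 32.7% and a TATA box (TATAAA) in 12.4%. Neither of the latter was matched in the Grin1 window, whose GC content was 58.8% against a median of 52.4% over all windows. These matches describe letters in a reference sequence, and no binding was measured.

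Grin2b (ENSMUSG00000030209) encodes GluN2B, a glutamate-binding subunit that slows channel closing and is known as the main GluN2 subunit of the embryonic forebrain. Its libraries held 2.26 and 2.02 CPM at E12.5 and 3.89 and 3.49 CPM by E14. They held 17.6 and 16.4 CPM by E15.5, 26.6 and 26.7 by E17, and 39.2 and 23.5 by P0. Levels rose without overlap up to E17, and the P0 libraries then fell on either side of the E17 level. From E12.5 to P0 the fitted change was 13.7-fold (log2 3.78 ± 0.28 SE, adjusted p = 1.11e-05). Among adjacent stages the step from E14 to E15.5 was called, at log2 2.21 ± 0.24 (adjusted p = 0.000364), and that from E15.5 to E17, 0.65 ± 0.20, was not (adjusted p = 0.0886). The change from E17 to P0 was 0.14 ± 0.20 (adjusted p = 0.657). It rested on which P0 library was used: without P0 replicate 1 it was -0.18 and without P0 replicate 2 it was 0.56 (adjusted p = 0.00609). Without either P0 library, Grin2b was also called from E12.5 to E14 (0.78 in both fits, adjusted p = 0.0214 and 0.0208) and from E15.5 to E17 (adjusted p = 0.00237 and 0.00265). The latter step was also called with library weights (0.001003) and with only the compared stages fitted (0.00427).

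Grin2a (ENSMUSG00000059003) encodes GluN2A, the faster subunit that is known to replace part of the GluN2B of cortical synapses after birth. It was close to the limit of counting, with 3 and 5 RPFs in the E12.5 libraries, 11 and 5 in those of E14, 8 and 6 in those of E15.5, 18 and 19 in those of E17, and 6 and 31 in those of P0. In CPM these were 0.165 and 0.187, 0.486 and 0.158, 0.241 and 0.253, 0.572 and 0.713, and 0.653 and 0.740. All libraries at E17 and P0 lay above all earlier ones, and the E14 libraries spanned those of E12.5 and E15.5. No adjacent step was called, but that from E15.5 to E17 was with library weights (adjusted p = 0.0215) and with only these stages fitted (0.0330). Over the whole course the fitted change was 3.72-fold (log2 1.89 ± 0.57 SE, adjusted p = 0.0185). That call was lost with DESeq2 (adjusted p = 0.0598), with library weights (0.0882), without E12.5 replicate 1 (0.0687) or replicate 2 (0.101), and without P0 replicate 2 (0.0868).

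Grin2d (ENSMUSG00000002771) encodes GluN2D, which gives channels with very slow closing and is known from interneurons and from subcortical regions. Its E12.5 libraries held 0.165 and 0.337 CPM, its E14 libraries 0.353 and 0.254, and its E15.5 libraries 0.452 and 0.296. Levels were 0.699 and 0.788 CPM in the E17 libraries and 1.96 and 1.12 in the P0 libraries. The first 3 stages overlapped, and E17 and then P0 lay above them without overlap. The fitted change from E12.5 to P0 was 4.57-fold (log2 2.19 ± 0.52 SE, adjusted p = 0.0063), from 12 counts at E12.5 to 65 at P0. No adjacent step was called, and the step from E17 to P0 (0.75 ± 0.30, adjusted p = 0.115) was called, at 1.41 (adjusted p = 0.0162), in the fit without P0 replicate 2. The step from E15.5 to E17 was called with library weights (0.90, adjusted p = 0.0371).

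Grin3a (ENSMUSG00000039579) encodes GluN3A, a glycine-binding subunit that lowers the calcium permeability of the receptor and is known from immature synapses. It was nearly undetected early, with 2 and 1 RPFs in the E12.5 libraries and again at E14. It then reached 23 and 11 RPFs in the E15.5 libraries, 52 and 58 in those of E17, and 59 and 197 in those of P0. As levels these were 0.110 and 0.0374 CPM, 0.0883 and 0.0317, 0.693 and 0.464, 1.65 and 2.18, and 6.42 and 4.70. From E15.5 on, each stage lay above the one before it without overlap. With 3 counts at E12.5 against 256 at P0, the ratio of pooled levels was 75.0 (95% counting interval 25.4 to 366), and the fitted log2 fold change of 5.99 ± 0.88 SE (adjusted p = 0.000482) depends on how so low a count is handled. From E14 to E15.5 the ratio was 10.8 (3.40 to 55.0) and the step was called (adjusted p = 0.0285), but not without E14 replicate 1 (0.114), E14 replicate 2 (0.188) or E15.5 replicate 1 (0.0930). The next steps were called at log2 1.64 ± 0.34 (adjusted p = 0.0262) and 1.46 ± 0.22 (0.00435). Counting intervals given here cover counting error only, not the spread between pools.

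Most RPFs counted on GluN2 genes fell on Grin2b at every stage. Of the RPFs on Grin2a, Grin2b, Grin2c and Grin2d together, Grin2b held 82.7 ± 6.3% at E12.5 and 84.7 ± 5.6% a step later (SD, n = 2 at each stage). Its share was 96.1 ± 0.66% at E15.5, then 94.6 ± 0.27% for E17 and 92.6 ± 0.63% for P0. These shares are of counts and depend on coding length, so only their course over the stages is read. The exact 95% binomial intervals of the single libraries were 74.3 to 95.2% and 66.7 to 87.3% at E12.5 and 93.6 to 97.1% and 94.2 to 98.1% at E15.5. Over the same stages Grin2a held 6.81 ± 0.61%, 7.06 ± 4.3%, 1.40 ± 0.13%, 2.28 ± 0.35% and 2.23 ± 0.96%. Grin2d held 9.71 ± 4.7%, 6.90 ± 0.63%, 2.10 ± 0.50%, 2.64 ± 0.21% and 4.53 ± 0.18%. These SDs do not show the counting error of so few RPFs. The Grin2a shares at E12.5 rest on 3 and 5 counts, with exact 95% binomial intervals of 1.34 to 17.5% and 2.39 to 16.1%. The log2 ratio of Grin2a to Grin2b counts, which does not depend on library scaling, averaged -3.44 ± 0.18 for E12.5, -3.64 ± 0.98 for E14, -6.00 ± 0.14 for E15.5, -5.34 ± 0.22 for E17 and -5.38 ± 0.58 for P0. Stage labels were permuted over the 10 libraries in all 113400 ways, and the spread between stages gave an exact permutation p of 0.0296, where the smallest possible is 0.00106. P0 lay 1.94 below E12.5, and the ratios of both E12.5 libraries, at -3.57 and -3.31, were above those of both P0 libraries, at -5.79 and -4.97. The exact permutation p was above 0.05, between 0.0561 and 0.0815, when either library of E12.5, E15.5 or E17 was left out. Grin1 counts per GluN2 count had stage means of 1.90, 1.45, 1.04, 1.34 and 1.69 in order of age. The lowest mean was at E15.5, which was not tested.

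**Figure D2:**
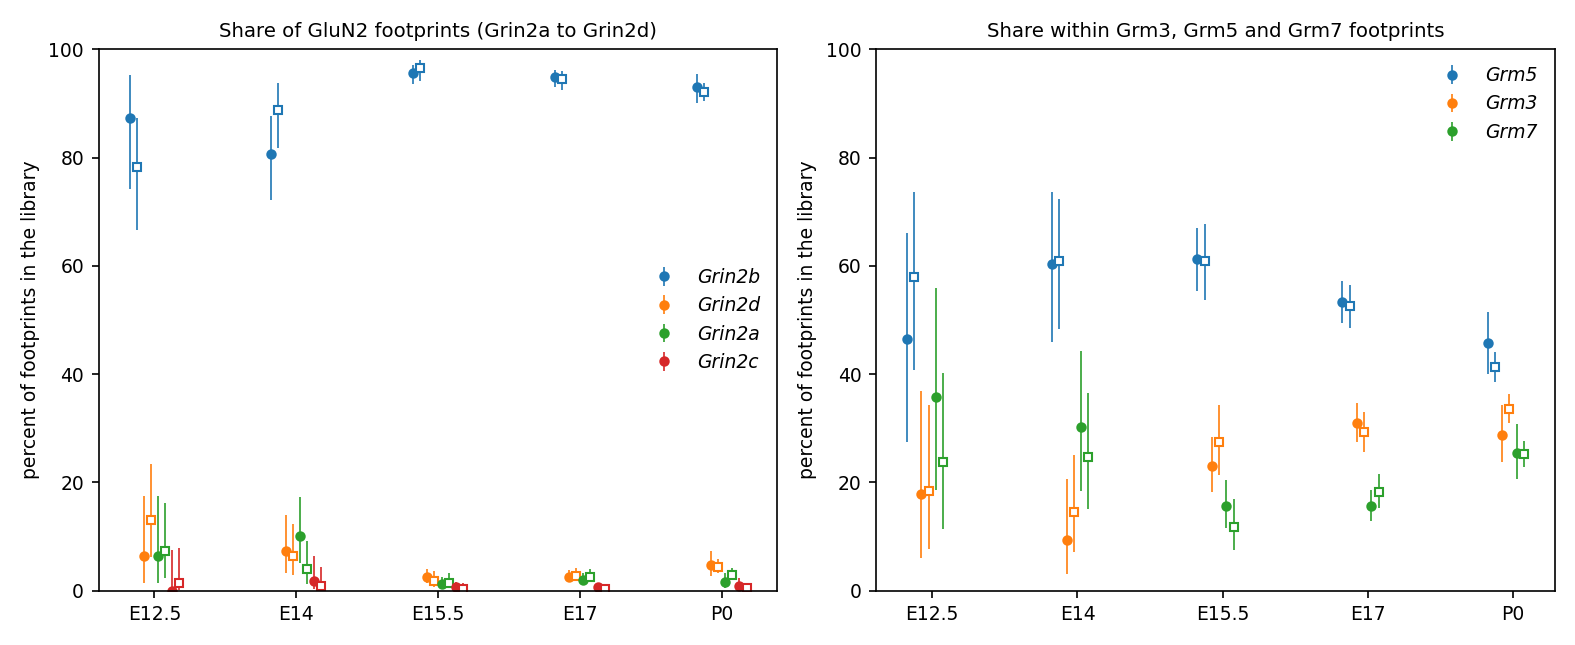
Share of each library's RPFs (percent) within the GluN2 genes (left) and within Grm3, Grm5 and Grm7 (right) against stage. Filled circles are replicate 1, open squares replicate 2, and bars are exact 95% binomial intervals. Grin2b lies between 78.3 and 96.5% in every library, and Grm3 goes from 17.9 and 18.4% at E12.5 to 28.8 and 33.6% at P0.

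Grm5 (ENSMUSG00000049583) encodes mGlu5, a group I receptor that couples through Gq to phospholipase C and is tied by Homer proteins to the NMDA receptor scaffold. Its level was 0.715 and 0.823 CPM in the E12.5 libraries, 1.41 and 1.33 in the E14 libraries and 5.21 and 5.07 in the E15.5 libraries. The E17 libraries held 11.3 and 12.3 CPM and the P0 libraries 15.0 and 12.1. Levels rose without overlap up to E17, and the P0 libraries overlapped those of E17. The fitted change from E12.5 to P0 was 16.4-fold (log2 4.04 ± 0.24 SE, adjusted p = 3.29e-06). Calls were made for E15.5 over E14 (1.90 ± 0.18, adjusted p = 0.000217) and for E17 over E15.5 (1.19 ± 0.13, adjusted p = 0.00743). The change from E17 to P0 was 0.16 ± 0.13 (adjusted p = 0.401).

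Grm3 (ENSMUSG00000003974) encodes mGlu3, a group II receptor that lowers cyclic AMP through Gi and is known from both neurons and astrocytes. It started low, with 0.275 and 0.262 CPM in the E12.5 libraries and 0.221 and 0.317 in those of E14. It then rose to 1.96 and 2.28 CPM by E15.5, to 6.57 and 6.83 by E17 and to 9.46 and 9.81 by P0. E12.5 and E14 overlapped, with a fitted change of 0.02 ± 0.45 on the log2 scale, and each later stage was separate from the one before. The change from E12.5 to P0 was 33.6-fold (log2 5.07 ± 0.34 SE, adjusted p = 5.84e-06), which ranked 87 from the top among the 13484 genes tested. The step from E14 to E15.5 was 2.85 ± 0.32 (adjusted p = 0.000406), that from E15.5 to E17 1.67 ± 0.13 (0.00533) and that from E17 to P0 0.53 ± 0.11 (0.0151). The last was not called with DESeq2 (adjusted p = 0.175), with library weights (0.143), with only E17 and P0 fitted (0.162), or without E17 replicate 1 (0.116) or replicate 2 (0.0663).

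The region before the Grm3 start is set beside that of Grin1 because both genes rose at the 3 steps after E14. RefSeq places its 250 bases at chr5:9725353-9725602 on the minus strand of GRCm38.p6. Capitals mark a GC box, GGGCGG, the motif bound by Sp-family factors, searched on both strands.
Grm3: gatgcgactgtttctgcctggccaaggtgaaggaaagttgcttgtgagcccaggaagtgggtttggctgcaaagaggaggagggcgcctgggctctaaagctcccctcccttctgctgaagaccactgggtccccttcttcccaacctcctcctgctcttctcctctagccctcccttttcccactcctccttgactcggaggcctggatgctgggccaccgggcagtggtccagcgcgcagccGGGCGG
The match ends at the base next to the start, the window held no TGACG or TATAAA, and its GC content was 62.4%. The Grin1 window held no GC box and the Grm3 window no TGACG, so these windows had none of the 3 searched motifs in common. Any relation of the motifs to the rise in RPFs was not tested.

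Grm7 (ENSMUSG00000056755) encodes mGlu7, a group III receptor of the presynaptic active zone that needs high glutamate to respond. The E12.5 libraries held 0.550 and 0.337 CPM, the E14 libraries 0.707 and 0.539 and the E15.5 libraries 1.33 and 0.971. By E17 the level was 3.30 and 4.28 CPM, and by P0 it was 8.38 and 7.35. E12.5 and E14 overlapped and later stages were separate. The fitted change from E12.5 to P0 was 17.95-fold (log2 4.17 ± 0.39 SE, adjusted p = 3.76e-05). The steps from E15.5 to E17 (1.67 ± 0.24, adjusted p = 0.00946) and from E17 to P0 (1.04 ± 0.18, adjusted p = 0.00669) were called. That from E14 to E15.5 (0.93 ± 0.34) missed the threshold with limma-voom (adjusted p = 0.0643) and passed it with edgeR (0.0432), total counts (0.0243), library weights (0.0393), only these stages fitted (0.0359) and without P0 replicate 2 (0.0492). The step from E17 to P0 was not called without E17 replicate 1 (0.0715), with library weights (0.0683) or with only these stages fitted (0.103). That of Grin3a was not called in the first and last of these fits (0.0536 and 0.0938).

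Of the 5 genes called from E15.5 to E17, all but Grm3 were called only with both libraries of each of these stages. Without any 1 of the 2 E15.5 and 2 E17 libraries the adjusted p of these genes lay between 0.056 and 0.182, except that Grm3 was still called without E17 replicate 1. Fold changes in these fits stayed within 1.5 times those with all libraries, and the lone library of a stage was then assumed to vary like the others. The share of all genes called in these fits is not given here.

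**Figure D3:**
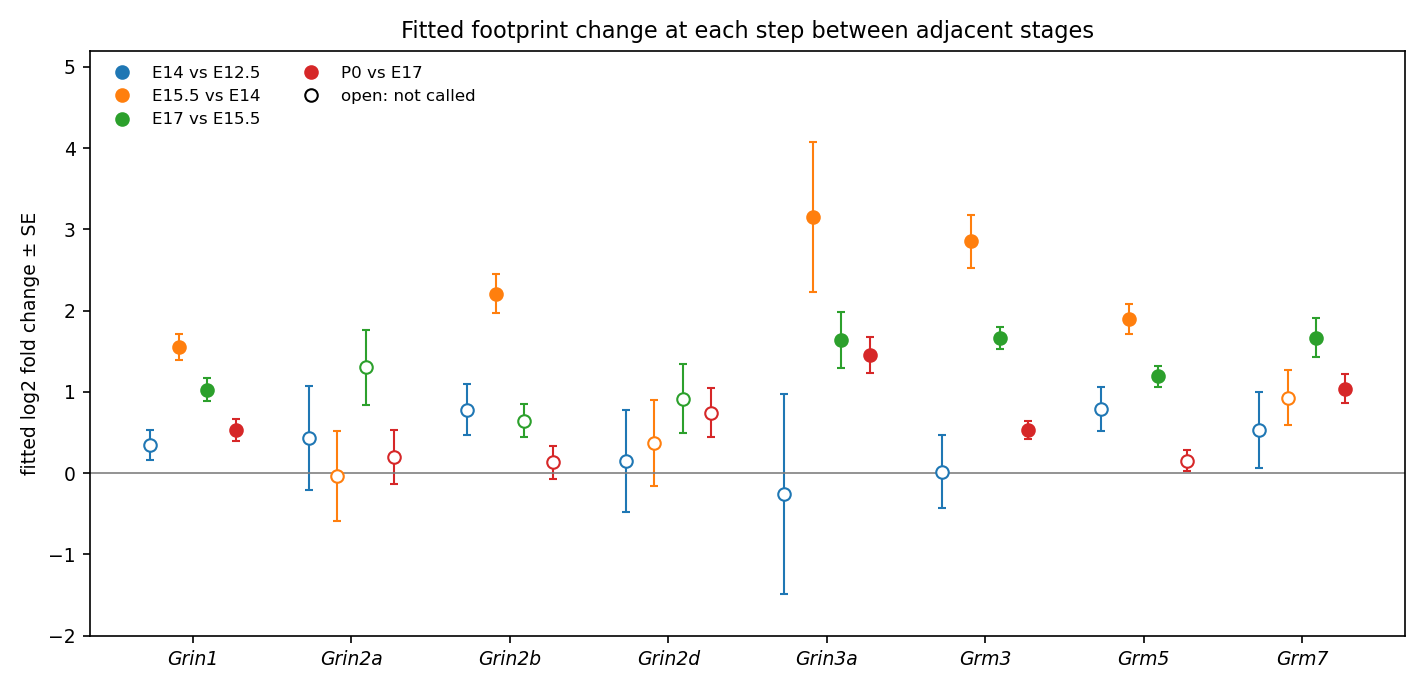
Fitted log2 fold change (limma-voom, bars ± 1 SE) of each receptor gene at the 4 steps between adjacent stages, later over earlier, with filled symbols for calls and open symbols for no call. The step from E14 to E15.5 (orange) reaches 3.15 for Grin3a and 2.85 for Grm3, and every step from E12.5 to E14 (blue) is open.

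Among the further NMDA and metabotropic receptor genes, Grin2c, Grin3b, Grm4 and Grm6 never passed 11 counts in a stage and were not tested. Grm2, which encodes the other group II receptor, and Grm8 were called higher at P0 than at E12.5, at log2 1.67 ± 0.30 and 3.49 ± 0.96. Grm8 passed the filter only through P0, with 38 counts, so its call is not independent of the filter. It had 3 counts at E12.5, which gives a ratio of 11.1 with a counting interval of 3.53 to 56.4. Of the counts on Grm3, Grm5 and Grm7 together, Grm5 held 52.2 ± 8.1% (SD, n = 2) at E12.5, 61.1 ± 0.31% at E15.5 and 43.5 ± 3.1% at P0. Grm3 went from 18.1 ± 0.40% and 11.96 ± 3.6% in the first 2 stages to 25.2 ± 3.1%, 30.1 ± 1.3% and 31.2 ± 3.4% at the later stages. Grm7 held 29.7 ± 8.5% at E12.5, 13.6 ± 2.8% at E15.5 and 25.3 ± 0.24% at P0. These shares depend on coding length as well as level, move against one another by construction and were not tested.

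Of 9 AMPA and kainate receptor genes, which encode the fast glutamate-gated channels, 7 rose and 1 fell from E12.5 to P0, with a median log2 fold change of 1.45, where 30.1% of all genes tested were called higher and 62.1% in either direction. The AMPA subunit genes Gria1, Gria4 and Gria2 rose by 2.19 ± 0.15, 1.75 ± 0.16 and 1.53 ± 0.13, and the kainate subunit gene Grik2 fell by 0.73 ± 0.14. From E17 to P0, 0 of these 9 rose and 3 fell (Gria2 at -0.59, Gria3 at -0.60 and Grik3 at -0.76, named after their values were seen), with a median of -0.33, where 20.5% of all genes tested were called in either direction. Over the same step the 8 receptor genes had 4 calls higher, against 9.46% of all genes tested, and none lower, with a median of 0.53. With library weights 1 of the 8 was called, against 5.18% of all genes in either direction. With only E17 and P0 fitted, none of the 8 and none of all genes were called. Calls of the AMPA and kainate genes in these fits are not given here. Whether the lists differ from one another was not tested.

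Of 22 genes whose proteins scaffold the NMDA receptor or act downstream of it, 19 rose and 1 fell from E12.5 to P0 (30.1% higher and 62.1% in either direction over all genes), with a median log2 fold change of 2.13. By rule the named genes are Camk2b, a calcium/calmodulin-dependent kinase subunit, at 4.78 ± 0.12 (39.5 to 1083 CPM), Dlgap1, a postsynaptic scaffold protein, at 4.32 ± 0.18, and Dlg2 (PSD-93), at 3.71 ± 0.24. Dlg1 (SAP97), of the same scaffold family as Dlg2, fell by 1.42 ± 0.21, from 41.4 to 15.0 CPM. Rasgrf1 and Src were not called. From E14 to E15.5, 16 of the 22 rose, against 16.5% of all genes.

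Of 20 genes of metabotropic receptor signalling, 15 rose and 3 fell from E12.5 to P0 (30.1% higher and 62.1% in either direction over all genes), with a median of 1.21. Ncdn (neurochondrin), a neuronal protein that binds mGlu5, rose by 3.003 ± 0.18, Rgs4, which shortens G protein signals, by 2.69 ± 0.22 and Gnai1, a Gi subunit, by 2.43 ± 0.11. The 3 that fell were Homer3 (-1.14 ± 0.18), Gnai2 (-0.81 ± 0.09) and Homer2 (-0.51 ± 0.14), whereas Homer1, the scaffold of the same family, named after its value was seen, rose by 1.35 ± 0.18. Homer3 and Homer2 encode further adaptors of group I receptors, and Gnai2 encodes another Gi subunit.

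Of 12 genes that supply or clear glutamate and glycine-site agonists, 6 rose and 3 fell from E12.5 to P0, against 30.1% of all genes tested higher and 62.1% in either direction, with a median of 0.43. Srr, serine racemase, which makes the co-agonist D-serine, rose by 3.004 ± 0.15, from 8.43 to 66.2 CPM. Slc1a1, a neuronal glutamate transporter, rose by 1.75 ± 0.19 and Glul, glutamine synthetase, by 1.08 ± 0.10. The serine hydroxymethyltransferases Shmt1 and Shmt2, which interconvert serine and glycine, fell by 2.18 ± 0.18 and 1.23 ± 0.15. Slc17a6, the vesicular glutamate transporter VGLUT2, fell by 1.14 ± 0.15.

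**Figure D4:**
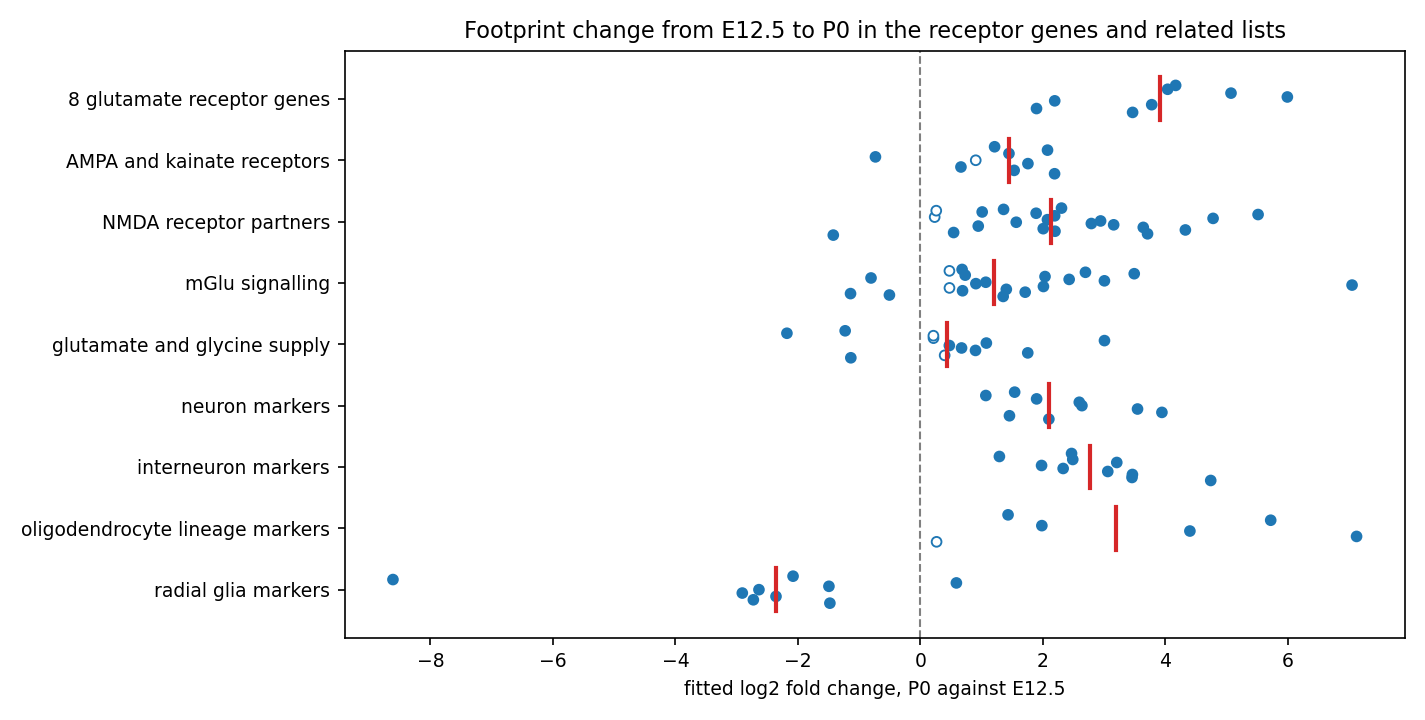
Fitted log2 fold change from E12.5 to P0 (limma-voom) of each tested gene in the receptor genes and related lists, with filled points for calls, open points for no call, red bars for list medians and a dashed line for the median of all genes tested. All 8 receptor genes lie right of zero with a median of 3.91, and the radial glia markers have a median of -2.36.

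Markers of several cell types moved over the same stages. From E12.5 to P0, 30.1% of all genes tested were called higher and 62.1% in either direction. The summed level of 9 neuron markers went from 2266 to 2306 CPM across the E12.5 libraries to between 9945 and 11252 at P0, and 9 of 9 were called higher with a median of 2.10. For 10 interneuron markers the sums were 36.9 to 37.1 CPM at E12.5 and 225 to 265 at P0, with 10 of 10 called higher. For 8 oligodendrocyte lineage markers they were 31.5 to 33.4 and 113 to 143 CPM, with 5 of 6 tested called higher and Gpr17 at 0 in both libraries at E12.5 and at E14. Of 9 radial glia markers, 8 were called lower and 1 higher, and of 10 astrocyte markers, 5 were called lower and 5 higher, with S100b at 0 in both E12.5 libraries. Markers of choroid plexus summed to 279 to 332 CPM in the E12.5 libraries, 1124 to 1130 in the E14 libraries and 5.56 to 14.4 from E15.5 on, and all 6 that were tested were lower at P0, as were 8 of 8 red blood cell genes. Kcnj13, a choroid plexus marker, was at 0 in both P0 libraries. Of 4 intermediate progenitor markers 4 were lower, of 6 Cajal-Retzius cell markers 4 were lower and 1 higher, and of 6 microglia markers tested 2 were lower. The part of these cell types in the receptor levels was not tested.

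The genes whose courses were most like those of the most-counted member of each family were found by Pearson's correlation of log2 CPM over the 10 libraries, among 9211 genes that averaged 100 counts or more. For Grin1 they were Tmem130 (0.997), Wipf3 (0.997) and Ank2 (0.996). For Grm5 they were Rab11fip4 (0.998), Syt5 (0.997) and Wipf3 (0.996). These values describe 10 points that share their stage and depth and carry no test. From E12.5 to P0, the mean level of Wipf3, which was named for both, went from 1.60 to 11.2 CPM.

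From E12.5 to P0 the receptor genes were higher under each scaling tried. With total counts in place of the scaling used, the median of all genes moved to 0.51 on the log2 scale for P0 against E12.5 and to 0.285 for E15.5 against E14, and calls were 72.0% higher instead of 48.5% and 72.7% instead of 45.6%. On that scale all 8 receptor genes were still called higher from E12.5 to P0, at 2.41 to 6.53, against 47.8% of genes, and 6 were called from E14 to E15.5, against 32.7%. Histone genes took 32.7 to 38.5% of counts in the E12.5 and E14 libraries and 6.32 to 9.83% in the P0 libraries.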

How the data were processed

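RPFs were measured in 10 neocortex libraries, 2 per stage, grouped by the labels. The deposited table holds whole-number counts per gene, not scaled for depth. According to the methods, the authors trimmed adapters, collapsed duplicate reads, removed tRNA, rRNA and snoRNA reads with Bowtie 2 and aligned the rest with STAR (2.7.0 per the submitters' processing notes), keeping reads with several matches, so genes with near-identical copies are uncertain. Whether the isoform-level estimates named in the methods underlie the table is not stated. Of 22373 identifiers, 22274 matched a symbol, and 99 did not.

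Genes with 32 counts in a stage were fitted by limma-voom (R 4.3.3, limma 3.58.1) with TMM scaling (edgeR 4.0.16) and 1 coefficient per stage. Two-sided moderated tests were adjusted by Benjamini-Hochberg over 13484 genes. Calls needed an adjusted p under 0.05 and a fold of at least 1.25. Ratios used a pseudocount of 0.5. Alternatives used total counts, median-of-ratios factors, no filter, edgeR, DESeq2 (1.42.0), library weights, no fold threshold, a replicate block, only the stages compared, or 1 library fewer. The code was tested on simulated data. Nothing ties replicates to separate litters beyond their being separate pools, so p-values measure the spread between pools.

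The members and lists were chosen with earlier results of these data known. Named genes were the members, other NMDA and metabotropic receptor genes and, per related list, up to 3 genes that rose most and up to 3 that fell most from E12.5 to P0 among those called, with a mean of at least 100 counts and no overlap between libraries. Gria3, Grik3 and Homer1 were named after their values were seen. Protein sequences were not used here.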

Additional observations from a re-analysis of the deposited data

How the results depend on the processing

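Over 18 alternatives, the fold changes of the 8 members in 5 comparisons gave 720 values, of which 645 kept direction and call, 48 lost a call, 16 gained one and 11 turned in direction. None of the turned values belonged to a called change. With total counts, Grin2a from E14 to E15.5 was 0.24 in place of -0.04. When 1 library at a time was left out, the log2 fold change from E12.5 to E14 ranged from -0.20 to 1.34 for Grin2a, -0.20 to 0.68 for Grin2d, -1.002 to 0.43 for Grin3a and -0.25 to 0.20 for Grm3, that from E14 to E15.5 from -0.95 to 0.60 for Grin2a, and that from E17 to P0 from -0.18 to 0.56 for Grin2b. The number of members called then ranged from 0 to 1 from E12.5 to E14, 4 to 6 from E14 to E15.5, 0 to 6 from E15.5 to E17, 0 to 6 from E17 to P0, 7 to 8 from E12.5 to P0 and 6 to 8 for any stage. Each of these fits leaves a stage with 1 library, which can change the calls of all genes. Without E12.5 replicate 1, fewer of all genes were called in each of these comparisons than with all libraries. Shares of all genes called are not given here for these fits, so a range that reaches 0 is not read as particular to the 8 members. With library weights 8 members were called from E15.5 to E17 and 1 from E17 to P0. Calls over all genes in either direction went from 9.04 to 27.6% and from 20.5 to 5.18%. With all other stages left out 0 were called from E17 to P0, of the 8 and of all genes. In that fit 4 members had an unadjusted p under 0.05, and the share of all genes under that threshold is not given here. From E17 to P0 on all libraries, edgeR called 4 members and 2482 of the 13484 genes tested. DESeq2 called 3 members and 2221 genes. The cause of these differences was not tested. The log2 ratio of Grin2a to Grin2b, P0 minus E12.5, ranged from -2.36 to -1.53 without 1 library.

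Replicate numbers were not used as pairs in the main fit. Correlations between stages of the replicate differences ran from -0.641 to 0.429. Those with E12.5 were all negative, from -0.641 to -0.109, and those among the later stages ran from -0.0442 to 0.429. Whether the replicates share a structure across stages was not tested. With a replicate block the members called at the 4 steps were 0, 5, 5 and 3, with Grin1 from E17 to P0 lost (adjusted p = 0.0526). Of the 13484 genes tested, 4, 4562, 819 and 2124 were called in either direction, against 86, 4868, 1219 and 2767 without the block. Over the whole course 8 members were called, and 7 for any stage. Over all genes these calls were 8017 and 8057, against 8371 and 8605 without the block. The ratio was -1.94 under the block (exact permutation p = 0.0667). Shares per coding length were not run, since coding lengths were not used here. Depth limits Grin2a, Grin2d, Grin3a and Grm3 at E12.5, where each had at most 12 counts.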
